A study of Mus musculus with 27 samples.

Results

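The 38 genes described here encode proteins that carry a cell through mitosis: the kinases and cyclins that start it, the spindle assembly checkpoint, the chromosomal passenger complex, centromere and kinetochore proteins, spindle motors, the cytokinesis machinery, and the proteins that release sister chromatids. They were chosen by name for their known roles in mitosis, with earlier results of these data known, and no threshold on their values was used. All 38 were among the 33924 gene symbols of the count table and all 38 passed the filter on low counts. RNA was sequenced from 12 mouse thyroid tumor cell lines and from 3 libraries marked wildtype. The tumor lines carry Braf(V600E), an activated form of the kinase that feeds the MAP kinase (MAPK) pathway, and fall into 4 genotypes of 3 lines each: Braf(V600E) alone, or together with loss (knockout, KO) of Smarcb1, Arid1a or Arid2. Each of these 3 genes encodes a subunit of SWI/SNF, a complex that moves nucleosomes. Each line gave 1 library in vehicle (Trappsol, a cyclodextrin) and 1 after 8 days of 300 nM CKI, the RAF and MEK inhibitor CH5126766. The comparisons ask how mitosis genes responded to blocking the MAPK pathway and whether loss of a SWI/SNF subunit altered their level or that response.

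All tumor line groups therefore share Braf(V600E), and the labels set the KO groups apart from the Braf lines by the named gene. Each genotype is its own set of lines. An effect of the lost gene therefore cannot be told apart from other differences between those lines. The lines were grown out of dissected mouse tumors. The labels give no promoter or Cre driver and no mouse age. They also leave open whether vehicle cultures received the bovine TSH named with CKI. No treatment is given for the 3 wildtype libraries, whose labelled source is also a tumor cell line.

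A dividing cell makes most mitotic proteins shortly before it needs them, in the G2 phase, and destroys many of them as it leaves mitosis. The transcription factor FoxM1 and the complex of B-Myb with MuvB switch the genes on, while the same MuvB core in the DREAM complex, with an Rb relative and a repressive E2F, holds them off in resting cells. MuvB reads a short promoter element named CHR (cell cycle genes homology region), which often lies near the start of transcription downstream of CCAAT boxes that bind NF-Y. RAF, MEK and ERK act earlier in the cycle, where they raise cyclin D1 and move cells out of G1. A level measured in bulk RNA cannot separate fewer dividing cells from less RNA per dividing cell.

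Promoters show what the members share in sequence. Of the 38 members, 31 had a promoter window in the RefSeq table (assembly GRCm38.p6, 250 bases before to 50 bases after the annotated start). The windows were searched on both strands for the CHR and for the CCAAT box, whose letters are those of its name and which appears as ATTGG when it lies on the opposite strand. The first form of the CHR searched was TTTGAA. On the opposite strand this form is written as TTCAAA. The second form was TTTAAA, which reads the same both ways and was counted once. The windows of 7 members are printed below from 120 bases before to 30 bases after the start, with both motifs in capitals. Cdk1, Ccnb1 and Ccnb2 encode the kinase that triggers mitosis and its B-type cyclins. Cenpa, Ube2c and Bub1 were among the members with the smallest adjusted p under CKI, and Pttg1 was the member whose RNA went its own way. The Cdk1 window spans chr10:69352883-69353032 on the minus strand. The Ccnb1 window spans chr13:100786457-100786606 on the minus strand. The Ccnb2 window spans chr9:70421525-70421674 on the minus strand. The Cenpa window spans chr5:30666766-30666915 on the plus strand. The Ube2c window spans chr2:164769809-164769958 on the plus strand. The Bub1 window spans chr2:127831830-127831979 on the minus strand. The Pttg1 window spans chr11:43425952-43426101 on the minus strand.
Cdk1: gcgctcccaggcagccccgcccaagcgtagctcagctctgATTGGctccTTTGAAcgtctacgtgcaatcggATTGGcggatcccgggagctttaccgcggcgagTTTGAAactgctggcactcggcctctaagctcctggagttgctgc
Ccnb1: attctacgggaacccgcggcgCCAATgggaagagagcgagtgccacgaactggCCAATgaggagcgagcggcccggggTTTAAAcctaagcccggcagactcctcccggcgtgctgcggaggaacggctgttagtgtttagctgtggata
Ccnb2: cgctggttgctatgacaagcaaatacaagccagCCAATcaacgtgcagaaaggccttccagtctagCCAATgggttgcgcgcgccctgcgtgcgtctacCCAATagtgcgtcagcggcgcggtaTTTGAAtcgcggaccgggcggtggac
Cenpa: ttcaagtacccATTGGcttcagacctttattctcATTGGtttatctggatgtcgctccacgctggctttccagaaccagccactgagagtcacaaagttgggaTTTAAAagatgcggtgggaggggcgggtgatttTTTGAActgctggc
Ube2c: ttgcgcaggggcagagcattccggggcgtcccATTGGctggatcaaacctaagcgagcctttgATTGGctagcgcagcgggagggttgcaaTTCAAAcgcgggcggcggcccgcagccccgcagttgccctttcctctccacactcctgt
Bub1: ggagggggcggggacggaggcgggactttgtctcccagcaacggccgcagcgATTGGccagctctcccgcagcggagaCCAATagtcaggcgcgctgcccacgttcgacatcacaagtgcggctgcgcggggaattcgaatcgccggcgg
Pttg1: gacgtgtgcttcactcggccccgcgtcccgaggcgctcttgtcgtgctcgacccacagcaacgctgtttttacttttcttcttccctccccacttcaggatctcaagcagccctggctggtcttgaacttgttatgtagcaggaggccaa

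A CHR was present in 26 of the 31 windows (83.9%), against 30.6% of 27025 gene symbols in the table and 22.5% of the 10319 that were also tested in the tumor lines. Within 50 bases of the start on either side, 23 of 31 windows (74.2%) held a CHR, against 9.54% of all symbols and 6.4% of tested ones. A CCAAT box lay in the 100 bases before the start in 21 of 31 windows (67.7%), against 22% of all symbols and 26.2% of tested ones. Both motifs occurred in 22 members (71%), against 12.2% of all symbols. The windows of Bub1, Mad2l1, Nuf2, Nusap1 and Pttg1 held neither searched form of the CHR, and of these only that of Bub1 held a CCAAT box. Other forms of the CHR were not searched. The median change under CKI over all tumor lines was −0.98 on the log2 scale for the 26 members with a CHR and −0.76 for the 5 without, which include both the strongest fall, Bub1 (−1.27), and the only value above 0, Pttg1 (0.13). A match describes these letters in these windows and says nothing about which factor bound there.

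**Figure D1:**
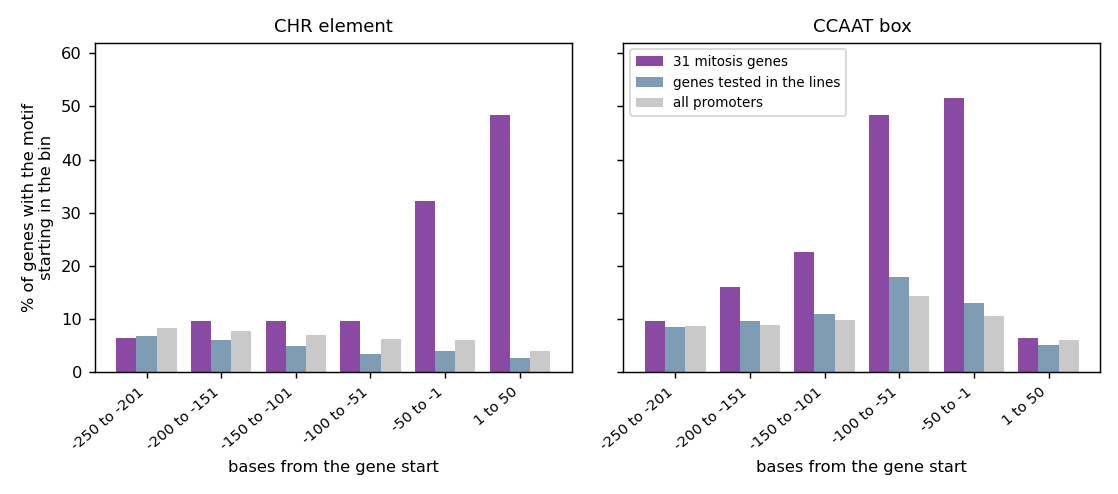
Share of promoters (%) in which a CHR element (left) or a CCAAT box (right) starts in each 50-base bin from the annotated gene start, for 31 mitosis genes, genes tested in the tumor lines, and all promoters of the table. The CHR share of mitosis genes reaches 32.3% in the bin before the start and 48.4% in the bin after it, and the CCAAT share reaches 51.6% in the bin before the start.

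Depth and the targeted genes were checked first. Libraries held 18417255 to 27257703 counts, with the exception of 2 treated Smarcb1 KO lines, BS53958 (11684983) and BS53965 (2884130). Results that rest on those lines are also given without them. Smarcb1 stood at 0.0475 to 3.27 CPM (the count of a gene relative to the scaled size of its library) in Smarcb1 KO libraries and at 67.9 to 99.1 CPM in the other 21. Arid1a stood at 62.7 to 96.1 CPM in Arid1a KO libraries and at 114 to 357 CPM elsewhere. Arid2 counts did not separate the Arid2 KO libraries (78.2 to 175 CPM) from the others (77.7 to 151 CPM), so they do not check that label. Replicates are separate cell lines, 3 per group. The p-values rest on a spread per gene pooled over all groups in the fit, not on the compared lines alone.

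The mitosis genes were low in wildtype libraries, high in every tumor line in vehicle, and in between in most lines under CKI. Averaged over the 38 genes, log2(CPM + 1) was 1.42 ± 0.12 (SD, n = 3) in wildtype and 5.97 ± 0.21 in Braf vehicle libraries. It was 5.92 ± 0.17 in Arid1a KO, 5.97 ± 0.35 in Arid2 KO and 6.6 ± 0.32 in Smarcb1 KO lines in vehicle (SD, n = 3 each). Under CKI it was 4.61 ± 0.32 in Braf, 4.59 ± 0.94 in Arid1a KO, 5.27 ± 1.01 in Arid2 KO and 5.97 ± 1 in Smarcb1 KO lines. The spread between lines under CKI was thus wider in every KO group than in the Braf group. The lowest treated library, Arid1a KO line BA45198 at 3.51, was still above the highest wildtype library at 1.55.

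**Figure D2:**
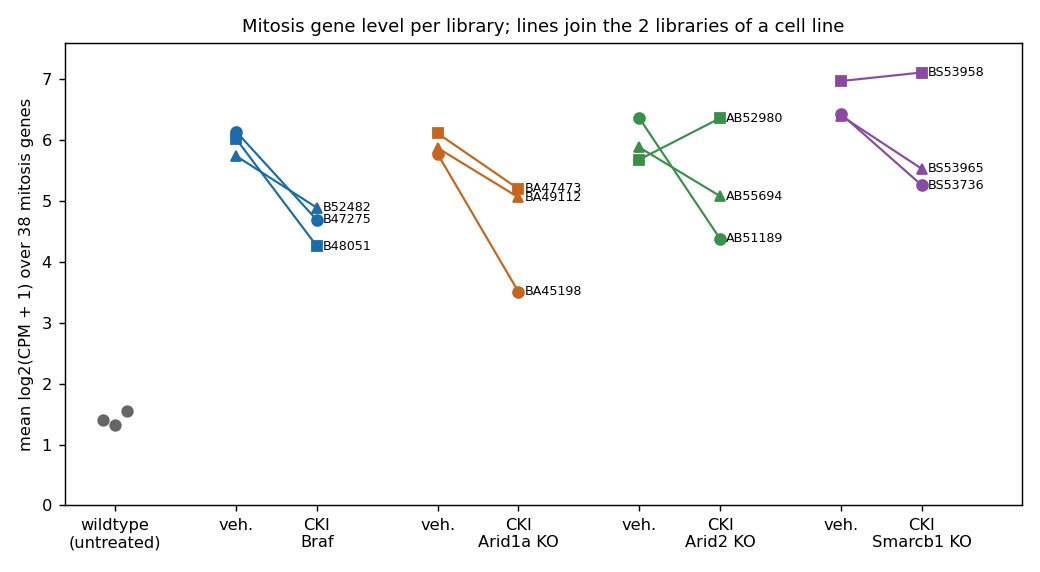
Mean log2(CPM + 1) over the 38 mitosis genes in each of the 27 libraries. Each line segment joins the vehicle (veh.) and CKI libraries of a cell line, named at its right end. Segments fall in 10 lines and rise in AB52980 (5.68 to 6.36) and BS53958 (6.97 to 7.11).

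The response to CKI was a fall of nearly the whole group. In the mean over the 4 genotypes, 26 of 38 members fell and 0 rose (edgeR quasi-likelihood test, Benjamini-Hochberg adjusted p under 0.05), where 13.6% of the 15634 genes tested fell. The median log2 change was −0.89 for the members and 0.03 for all genes tested. With the cell line as a block, which compares each line with itself, 37 members fell (21% of all genes) and the median was −1.08. The exception was Pttg1 (0.07 ± 0.22 SE, adjusted p = 0.838 with the block). Without the block, the count was 11 without line AB51189, 16 without B47275, 17 without BS53736 and 17 without BS53965. With the block it stayed between 31 and 37 whichever line was left out. Over all genes, these fits with a line left out called 2924 to 4513 genes in either direction without the block. With the block they called 5509 to 6578. Without both BS53958 and BS53965, 29 members fell, or 33 with the block.

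**Figure D3:**
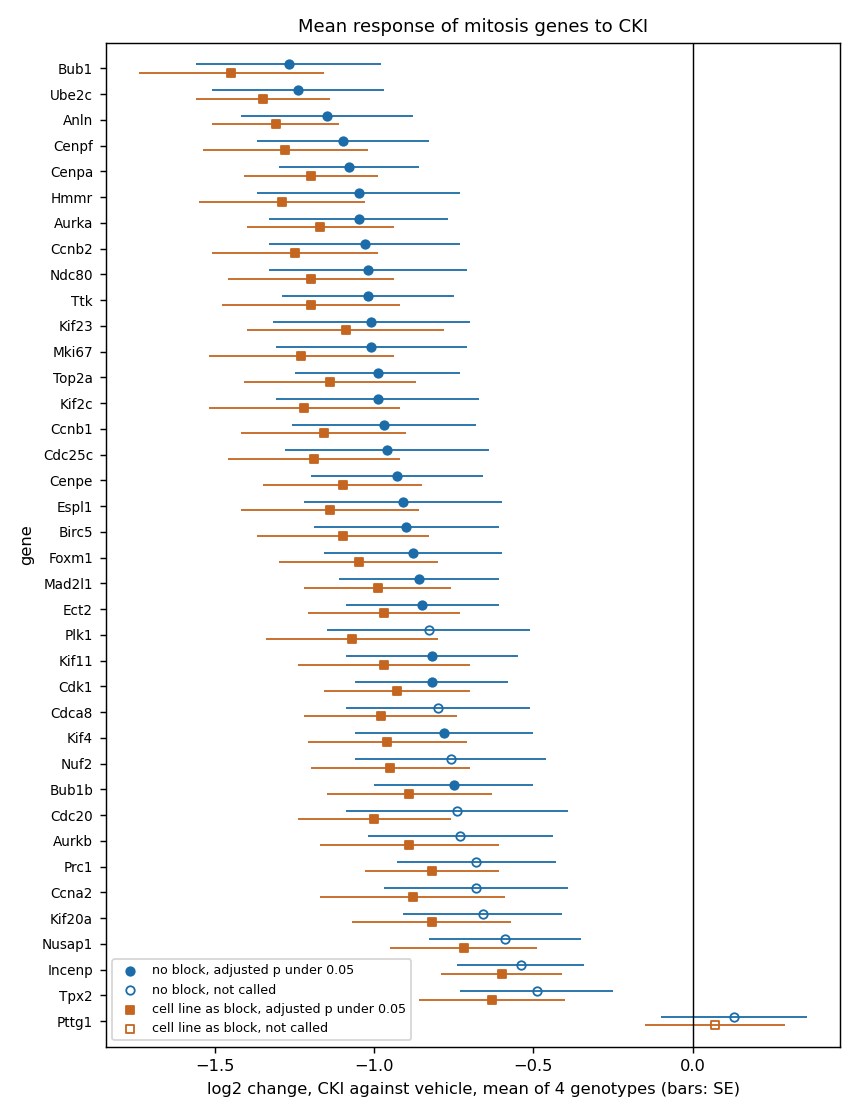
Log2 change under CKI, averaged over the 4 genotypes, for each of the 38 genes, with bars for the standard error. Circles are from the fit without and squares from the fit with the cell line as a block. Filled symbols have an edgeR adjusted p under 0.05. Every gene except Pttg1 lies below 0 in both fits.

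Among the 8 genes that start mitosis, 6 fell in the mean over genotypes and 8 fell with the block. Cdk1, the kinase that drives entry, stood in vehicle at 149, 117 and 75.5 CPM in the Braf lines, 109, 116 and 86.8 CPM in the Arid1a KO lines, 118, 70.9 and 89.6 CPM in the Arid2 KO lines, and 158, 237 and 188 CPM in the Smarcb1 KO lines. Under CKI the same lines held 52, 42 and 43.1 CPM, then 27.8, 60.6 and 55.9 CPM, then 30.8, 132 and 58.9 CPM, then 66.4, 238 and 88.8 CPM. Cdk1 was thus lower under CKI in all Braf and Arid1a KO lines without overlap between the groups, and the Arid2 KO and Smarcb1 KO groups overlapped. Its mean change was −0.82 ± 0.24 (SE, adjusted p = 0.0174). Ccnb1, whose cyclin B1 activates Cdk1, went from 69.1 ± 17 to 24.4 ± 3.68 CPM in Braf lines (SD, n = 3) and changed by −0.97 ± 0.29 in the mean (adjusted p = 0.019). Ccnb2 (−1.03), Aurka, a centrosome kinase (−1.05), the Cdk1-activating phosphatase gene Cdc25c (−0.96) and the transcription factor gene Foxm1 (−0.88 ± 0.28, adjusted p = 0.028) also fell. Plk1, a kinase used throughout mitosis, and Ccna2, cyclin A2, were called only with the block (−1.07, adjusted p = 0.0098, and −0.88, adjusted p = 0.0324).

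All 4 spindle checkpoint genes fell. Their products delay anaphase until every chromosome is attached. Bub1, a checkpoint kinase, stood in vehicle at 52.1, 63.3 and 43.1 CPM in Braf, 42.6, 60.4 and 55.6 in Arid1a KO, 75.6, 42.9 and 40 in Arid2 KO, and 80.1, 78.4 and 93.1 in Smarcb1 KO lines. Under CKI it stood at 13.1, 13.8 and 16.1 CPM, then 3.55, 24.7 and 17.3, then 10.9, 56.7 and 20.6, then 27.9, 87.9 and 50.8 CPM in the same order of lines. The Braf values under CKI lay close together, while the KO lines spread widely, with BA45198 lowest and BS53958 highest. Bub1 had the largest mean fall of the members (−1.27 ± 0.29, adjusted p = 0.00425). Ttk, the Mps1 kinase (−1.02), Mad2l1, which encodes the Mad2 inhibitor of anaphase (−0.86), and Bub1b, which encodes BubR1 (−0.75), fell less.

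The chromosomal passenger complex corrects faulty attachments and later guides cytokinesis. Of its 4 genes, only Birc5, the survivin gene, was called without the block (−0.9, adjusted p = 0.03), and all 4 were called with it. Aurkb, the kinase of the complex, held 34.9, 32.5 and 20.4 CPM in Braf lines in vehicle and 13.5, 9.91 and 13.1 CPM under CKI, without overlap. In Arid2 KO lines it went from 35.3, 18.8 and 31.5 to 12.4, 43.7 and 17.3 CPM, so that line AB52980 moved opposite to the other 2. Its mean change was −0.73 ± 0.29 (adjusted p = 0.0664, or 0.0244 with the block). Incenp, the scaffold of the complex, changed by −0.54 and Cdca8, which encodes borealin, by −0.8.

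Of 5 centromere and kinetochore genes, 4 fell without and 5 with the block. Cenpa, the histone variant that marks centromeres, had the smallest adjusted p of all members (−1.08 ± 0.22, adjusted p = 0.00248). Cenpf changed by −1.1, Ndc80, a microtubule-binding kinetochore subunit, by −1.02, and Cenpe, a kinetochore motor, by −0.93 ± 0.27 (adjusted p = 0.0187). Nuf2, the partner of Ndc80, was called only with the block (−0.95, adjusted p = 0.0108). Cenpe stood at 82.9, 109 and 68.6 CPM in Braf lines in vehicle and at 30.2, 30.6 and 36.8 CPM under CKI.

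Among 6 genes of spindle motors and microtubule proteins, 4 fell without and 6 with the block. Kif11, the motor that pushes the spindle poles apart, went from 85.1, 71.5 and 44.9 to 29, 22.6 and 31.7 CPM in Braf lines, and its mean change was −0.82 ± 0.27 (adjusted p = 0.0294). Hmmr, a spindle-associated protein (−1.05), the microtubule depolymerase gene Kif2c (−0.99) and the chromokinesin gene Kif4 (−0.78) also fell. Tpx2, an activator of Aurora A, changed least of the genes called with the block, apart from Incenp (−0.63 for Tpx2 and −0.6 for Incenp).

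Cytokinesis genes showed the same direction, with 3 of 5 called without and 5 with the block. Anln, the actin-binding protein anillin of the contractile ring, held 307, 204 and 394 CPM in Braf lines in vehicle and 90.2, 59.2 and 141 CPM under CKI. Its mean change was −1.15 ± 0.27 (adjusted p = 0.00504). Ect2, the exchange factor that activates RhoA at the division site, fell by 0.85 on the log2 scale. Prc1, which bundles the microtubules of the central spindle, changed by −0.68 ± 0.25 (adjusted p = 0.0533, or 0.00976 with the block). Kif23, a subunit of the central spindle complex, fell (−1.01), and its values were uneven in the Smarcb1 KO lines, where it held 156, 91.8 and 432 CPM in vehicle and 80.4, 159 and 137 CPM under CKI in lines BS53736, BS53958 and BS53965. The value of 432 CPM was the highest of Kif23 in any library, and BS53958 was the only line of that genotype in which Kif23 was higher under CKI.

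The 4 genes of anaphase and mitotic exit differed among themselves. Ube2c, the ubiquitin-conjugating enzyme of the anaphase-promoting complex (APC/C), fell (−1.24, adjusted p = 0.0032), as did Espl1, the separase gene (−0.91). Cdc20, the APC/C activator, had the largest standard error of the members (−0.74 ± 0.35, adjusted p = 0.118) and was called with the block (−1, adjusted p = 0.00683). Pttg1, whose product securin holds separase inactive, was higher under CKI in 8 of 12 lines and lower in 4. It stood at 13, 22.9 and 19.9 CPM in Braf lines in vehicle and at 21.6, 10.8 and 24.5 CPM under CKI. Those groups overlapped, and the mean change over genotypes was 0.13 ± 0.23 (adjusted p = 0.716). The DNA topoisomerase gene Top2a (−0.99 ± 0.26, adjusted p = 0.00969) and Mki67, the gene of the proliferation antigen Ki-67 (−1.01 ± 0.3, adjusted p = 0.0178), both fell.

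**Figure D4:**
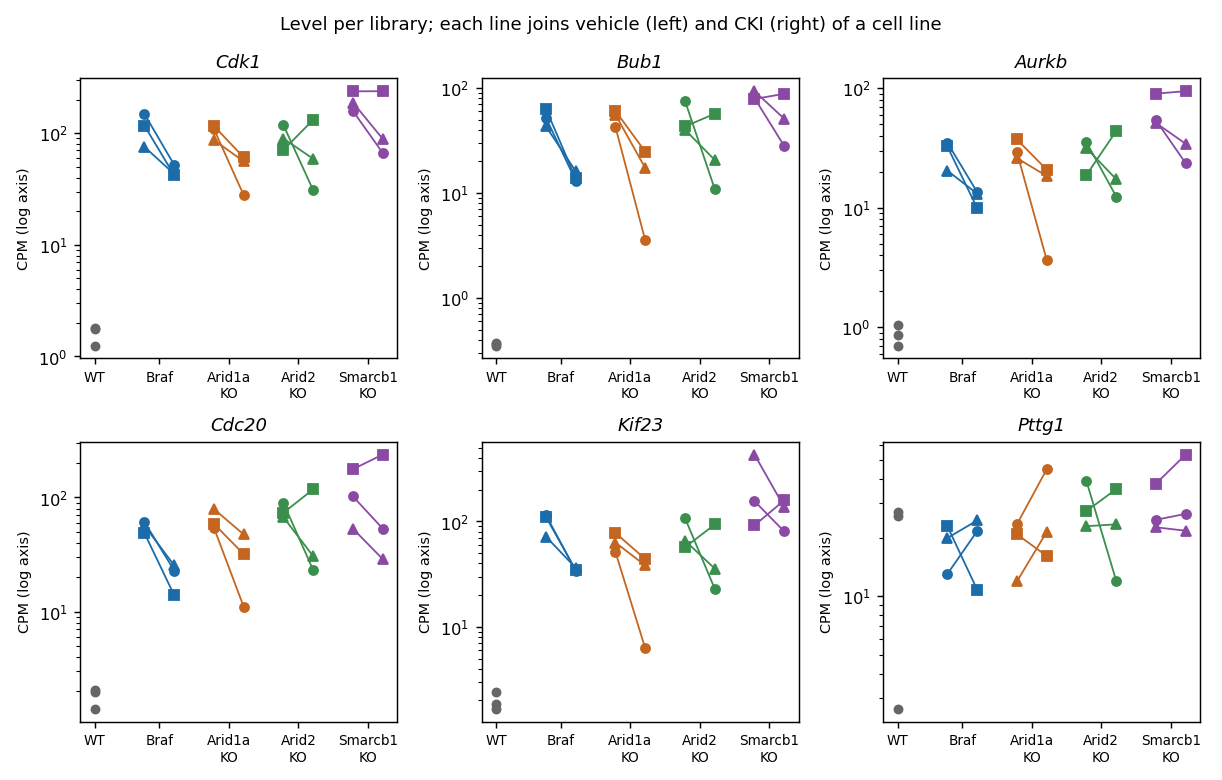
CPM on a log axis in each library for Cdk1, Bub1, Aurkb, Cdc20, Kif23 and Pttg1. Grey points are wildtype (WT) libraries, and each coloured segment joins vehicle (left) and CKI (right) of a cell line. In the Braf lines the first 5 genes are lower under CKI in every line, and Pttg1 is higher in 2 of 3.

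The size of the response varied between the 12 lines, and the median change of the members was above 0 in 2. Per line, the median of the members' changes in log2(CPM + 1) was −1.5, −1.79 and −0.86 in Braf lines B47275, B48051 and B52482, and −2.42, −0.9 and −0.82 in Arid1a KO lines BA45198, BA47473 and BA49112. It was −2.06, 0.69 and −0.81 in Arid2 KO lines AB51189, AB52980 and AB55694, and −1.21, 0.12 and −0.87 in Smarcb1 KO lines BS53736, BS53958 and BS53965. The median was thus below 0 in 10 lines and above 0 in AB52980 and BS53958, and 37 of 38 members were lower in all 10 of those lines. In AB52980 all 38 members were higher under CKI, from 0.09 for Anln to 1.17 for Aurkb, while 49.1% of all genes tested were lower. In BS53958, 31 members were higher and 7 lower, between −0.53 for Ube2c and 0.78 for Kif23, while 52% of all genes tested were lower. Its median of 0.12 was a small change. Over the 12 lines, 45.5% (BS53736) to 53.1% (BS53965) of all genes tested were lower in a line. In AB51189, Bub1b changed least (−0.71) and Bub1 most (−2.69), although both are checkpoint genes.

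Readouts of the pathway that CKI blocks were set beside these lines, after the values per line had been seen. Of 10 genes known to follow ERK activity (Dusp4, Dusp6, Spry2, Spry4, Etv4, Etv5, Ccnd1, Fosl1, Phlda1 and Egr1), 8 were lower under CKI in AB52980 (median −1.57), including the phosphatase gene Dusp6 (−1.05), Spry4 (−2.3) and the cyclin D1 gene Ccnd1 (−2.35). In BS53958, 7 of the 10 were lower with a median of −0.23. Etv4 changed by −1.69 and Dusp6 by −1.42, while Ccnd1 changed by −0.07 and Fosl1 by 0.34. The medians of the other 10 lines lay between −2.45 (AB51189) and −0.89 (BS53965). Not all of the 10 genes followed the inhibitor: in AB52980 Egr1 was higher by 1.32 and Phlda1 changed by 0, and over the 12 lines they were lower in only 3 and 5. The median of the mitosis genes and that of these genes had opposite signs in AB52980 (0.69 and −1.57). They did so at smaller values in BS53958 (0.12 and −0.23).

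**Figure D5:**
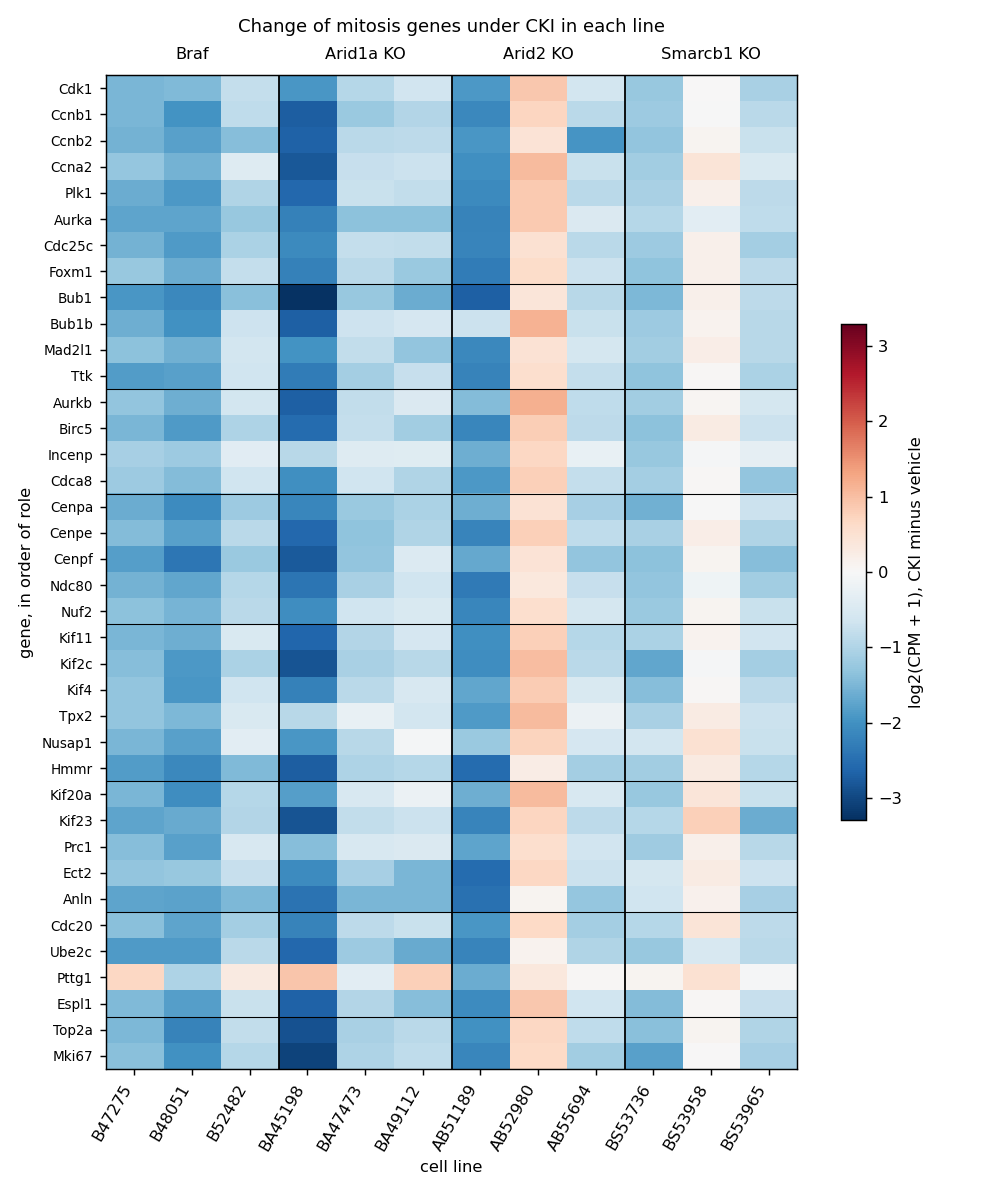
Change in log2(CPM + 1), CKI minus vehicle, for the 38 genes (rows, ordered by role) in the 12 cell lines (columns, by genotype). Blue is lower and red higher under CKI. The column of AB52980 is red throughout and that of BS53958 is near white, and the Pttg1 row is mixed, lower in only 4 of the 12 lines.

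By genotype, the calls were few. In Braf lines 0 of 38 members and 0% of all genes were called by edgeR, and the median change was −1.42. An unadjusted p under 0.05 was reached by 34 members. That is not a call, and it is given without the share of all genes that reached it. DESeq2 called 2 members, and the block called 0 (2.48% of all genes). Vehicle and CKI values did not overlap for 37 of 38 members, all lower under CKI, where 9.02% of all genes showed that pattern. In Arid1a KO lines 4 members fell (6.84% of all genes), namely Ube2c (−1.73 ± 0.55, adjusted p = 0.043), Cenpa (−1.43, 0.0436), Anln (−1.69, 0.046) and Bub1 (−1.79, 0.0491). With the block 15 fell (15.3% of all genes), and with any 1 of the 3 lines left out the counts were 0 without and 0 to 3 with the block. The median was −1.24, and 35 members did not overlap (22.7% of all genes).

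In Arid2 KO lines 0 members were called by edgeR or DESeq2 (0.141% of all genes by edgeR), and 0 had an unadjusted p under 0.05. The median change was −0.5, and it was −1.47 without AB52980 and 0.08 without AB51189. In Smarcb1 KO lines 0 members were called by either tool (0.032% of all genes by edgeR), with 0 at an unadjusted p under 0.05 and a median of −0.39. Without BS53958 and BS53965 the median was −1.23, from the single line left. In both genotypes, vehicle and CKI values overlapped for all 38 members, where 9.17% and 5.46% of all genes were lower without overlap. The block called 0 members in either, where it called 6.27% and 1.06% of all genes.

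Whether the response differed between a KO and the Braf lines was tested as the difference of the responses. By edgeR, 0 members were called for Arid1a KO, Arid2 KO or Smarcb1 KO (0% of all genes in each), 0 had an unadjusted p under 0.05, and DESeq2 called 0. The median difference, KO minus Braf, was 0.2 for Arid1a KO, 0.94 for Arid2 KO and 0.91 for Smarcb1 KO. For Cdk1 it was 0.98 ± 0.67 (SE) in Arid2 KO and 0.75 ± 0.67 in Smarcb1 KO. With the block these Cdk1 differences were smaller, at 0.72 ± 0.65 and 0.49 ± 0.63. The block called 0 members for Arid1a KO, Arid2 KO or Smarcb1 KO, where it called 0.147%, 0% and 0.032% of all genes. The median for Smarcb1 KO was 0.14 without BS53958 and BS53965, and with 1 line left out it ranged from 0.35 (without BS53958) to 1.21 (without B52482). That for Arid2 KO ranged from 0.01 (without AB52980) to 1.5 (without AB51189). These comparisons share the Braf libraries.

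In vehicle, the comparison with the Braf lines gave 0 called members in each KO. The share of all genes called was 3.63% for Arid1a KO, 0.0512% for Arid2 KO and 18.1% for Smarcb1 KO. At an unadjusted p under 0.05 the counts were 0, 0 and 2 members, and DESeq2 called 0 in each. The medians were −0.07 for Arid1a KO and 0 for Arid2 KO. For Smarcb1 KO the median was 0.67, 37 members were above 0, and 21 did not overlap with the Braf lines, all higher (16.7% of all genes). Its largest difference was that of Kif23 (1.17 ± 0.62, adjusted p = 0.19). Incenp had the smallest adjusted p (0.97 ± 0.41, adjusted p = 0.102).

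Under CKI, mitosis genes stood higher in Smarcb1 KO than in Braf lines. Of 38 members, 21 were higher and 0 lower by edgeR, where 10.1% of all genes were higher, and the median difference was 1.64. The values of 30 members did not overlap, all higher in Smarcb1 KO (14.7% of all genes). All 4 checkpoint and all 4 passenger complex genes were called, as were 4 of 5 cytokinesis genes and 0 of 5 centromere and kinetochore genes. Differences of similar size lay on both sides of the threshold. Mean levels in Smarcb1 KO and Braf lines were 25.5 and 8.59 CPM for Ndc80, which was not called. They were 74.1 and 24.7 CPM for Mad2l1, which was called. Nusap1, a spindle microtubule protein, had the smallest adjusted p: it stood at 42.3, 140 and 41.6 CPM in Smarcb1 KO and 15.4, 10.2 and 20.6 CPM in Braf lines under CKI (2.27 ± 0.51, adjusted p = 0.00576). Anln (2.13, adjusted p = 0.0125), Incenp (1.54, 0.0149) and Prc1 (1.8, 0.021) followed. Cdc20 differed most (2.37 ± 0.72, adjusted p = 0.027) from a wide spread, at 53.3, 238 and 28.8 CPM against 22.9, 13.9 and 25.4 CPM. Pttg1 differed least (0.83, adjusted p = 0.208).

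That count rested on single lines. It was 1 without BS53958, 1 without B47275, 2 without B48051 and 7 without B52482, and 0 without BS53958 and BS53965, where the median was 0.5. With each line left out, 1998 to 3069 of all genes were called in either direction. Fitted on the 2 compared groups alone, 1 member was called, and DESeq2 called 31. The share of all genes is not given for these 2 fits, so their counts cannot be set against it. Arid1a KO and Arid2 KO lines differed from Braf lines under CKI in 0 members by edgeR and by DESeq2 (0.736% and 0.064% of all genes by edgeR). Their medians were 0.18 and 0.91, and 0 and 3 members had an unadjusted p under 0.05.

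Against the wildtype libraries, 37 of 38 members were higher in Braf vehicle lines (23.7% of all genes higher) with a median log2 difference of 5.62. Under CKI 37 were still higher (21.2% of all genes) with a median of 4.19. Bub1 stood at 0.363 ± 0.0125 CPM in wildtype and 52.8 ± 10.1 CPM in Braf vehicle libraries (SD, n = 3). Apart from Pttg1, the smallest difference in vehicle was that of Mad2l1 (2.91), at 9.22, 7.07 and 6.5 CPM in wildtype. Pttg1 stood at 27, 25.8 and 2.63 CPM in wildtype and was not called (0.01 in vehicle and 0.04 under CKI), with 1 wildtype library far below the other 2. The wildtype libraries also differed in cell makeup. Their summed thyrocyte markers (9 genes) reached 229000 to 348000 CPM against 92.9 to 254 CPM in Braf vehicle libraries, and leukocyte markers (7 genes) reached 743 to 1190 CPM against 4.33 to 9.12 CPM. Skeletal muscle markers (5 genes) reached 1290 to 2880 CPM against 1.44 to 2.42 CPM, and adipocyte markers (4 genes) 912 to 2760 CPM against 0 to 0.155 CPM. Of the marker lists read, only the epithelial one (6 genes) overlapped, at 1220 to 1460 CPM against 1350 to 7060 CPM. The part of other cell types in the difference was not tested. Tumor genotype and cell makeup cannot be told apart in this comparison.

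Markers of several cell types also moved under CKI. Of 7 fibroblast markers, 4 rose in the mean over genotypes (Col1a1, Col1a2, Col3a1 and Dcn). The summed level of all 7 went from 5.46 to 174 CPM across Braf vehicle libraries to 21.9 to 2060 CPM across Braf CKI libraries. In Arid1a KO lines it went from 1310 to 3650 up to 1900 to 6740 CPM, and in Arid2 KO lines from 20.2 to 32.4 up to 515 to 1140 CPM. In Smarcb1 KO lines it ranged from 6.41 to 667 CPM in vehicle and from 14.9 to 112 CPM under CKI. No fibroblast marker was at 0 in all libraries of a group. Of 7 leukocyte markers 2 rose (Csf1r and Lyz2), and the sum stayed at or below 109 CPM in every tumor line library. Of 9 thyrocyte markers, 2 rose (Tg by 4.35 and Tshr by 4.61). The summed range of all 9 went from 92.9 to 254 up to 276 to 706 CPM in Braf lines. In Arid1a KO lines it went from 71.5 to 199 up to 345 to 773 CPM. It went from 122 to 376 up to 212 to 983 CPM in Arid2 KO lines, and from 33.1 to 224 up to 38.9 to 522 CPM in Smarcb1 KO lines. Of 6 epithelial markers 0 were called, and Krt18 and Krt8 fell with the block (−2.68, adjusted p = 0.00503, and −1.78, adjusted p = 0.0332). The epithelial sum went from 1350 to 7060 CPM in vehicle to 217 to 8380 CPM under CKI in Braf lines, and from 316 to 336 down to 9.02 to 19.7 CPM in Arid1a KO lines. It ranged from 84.5 to 922 and then 84.8 to 211 CPM in Arid2 KO, and from 0.215 to 245 and then 1.19 to 241 CPM in Smarcb1 KO lines. Of 5 skeletal muscle markers 0 were called without the block, Acta1 rose with it (2.22, adjusted p = 0.000707), and the highest sum among tumor line libraries was 183 CPM in vehicle and 1910 CPM under CKI, both in Arid2 KO. Of 5 endothelial markers 0 were called without the block and Cdh5 fell with it (−3.12). The endothelial sum stayed at or below 6.29 CPM in Braf, Arid1a KO and Arid2 KO libraries. In Smarcb1 KO lines it reached 666 CPM in vehicle and 57.3 CPM under CKI. Of 3 C cell markers Calcb fell (−4.45). The C cell sum was 6.19 to 31.1 CPM in Braf vehicle libraries and at most 2.19 CPM in every other tumor line group. The part of these cell type markers in the fall of the mitosis genes was not tested.

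Other genes of division were read from further lists, in the mean over genotypes, where 13.6% of all genes tested fell and 13.6% rose. Of 28 other kinetochore and centromere genes, 16 fell and 0 rose (median −0.66), including Cenpb (−0.68 ± 0.11, adjusted p = 0.000526) and Mis12 (−0.6). Of 17 further checkpoint kinases, phosphatases and their regulators, 13 fell and 0 rose (median −0.87), including Cdc25b (−0.94) and Ccnf, the gene of cyclin F (−1.2). Of 29 further motor, spindle and centrosome genes, 15 fell and 2 rose (median −0.62), with Aspm, a spindle pole protein, at −1.03 and the risen Kifap3, a kinesin-II subunit that serves transport and cilia, at 0.71. The other that rose was Numa1, a spindle pole protein that is nuclear in interphase (0.3). Of 8 condensin genes, which compact mitotic chromosomes, 7 fell and 0 rose (median −0.7), including Smc2 (−0.88).

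In the cohesin and APC/C lists genes were called in both directions, where 13.6% of all genes tested fell and 13.6% rose. Of 10 cohesin genes 2 fell, Rad21 (−0.43) and Smc3 (−0.32), and 2 rose, Nipbl (0.26) and Stag2 (0.23), with a median of −0.16. Of 14 APC/C genes 1 fell, its inhibitor Fbxo5 (−0.83), and 2 rose, Cdc23 (0.39) and Anapc2 (0.26), with a median of −0.07. Of 12 genes of MuvB and DREAM, 6 fell, among them E2f4 (−0.55) and E2f5 (−0.53), and 2 rose, Tfdp2 (0.88) and Rbl2 (0.68 ± 0.15, adjusted p = 0.00357), which encodes an Rb relative of the DREAM complex, with a median of −0.52. For comparison, 27 of 34 genes of DNA replication and the G1/S transition fell and 0 rose, with a median of −0.77. In line AB52980 the replication genes had a median of 0.64, beside 0.69 for the mitosis genes, and in BS53958 the medians were −0.11 and 0.12.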

How the data were processed

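Total RNA was taken up in TRIzol and sequenced from TruSeq libraries, per the labels. The table deposited by the authors gives raw counts for each gene symbol in each library. The submitters' processing notes name STAR 2.4, HTSeq 0.6.1, DESeq2 and the mm9 build. Their roles, the annotation and the strand setting were not given in the sources used here, so reads of a gene and an antisense partner cannot be told apart.

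The analysis used edgeR 4.0.16 under R 4.3.3 (filterByExpr, TMM scaling, glmQLFit and glmQLFTest, Benjamini-Hochberg over all genes tested). One mean per group was fitted to the 24 tumor line libraries (15634 genes). Comparisons with wildtype used all 27 libraries (16821 genes). Standard errors were derived from the F statistic. Alternatives were RLE size factors, DESeq2 1.42.0, other filters, only the compared groups, each line left out, lines BS53958 and BS53965 left out, and the cell line as a block. The block with lines left out was added after the data were seen. Vehicle and CKI libraries of a line pair by design, and their deviations from the group means correlated at 0.242 to 0.782 in all 12 lines. All 38 members may be named. Cdk1, Ccnb1, Foxm1, Bub1, Aurkb, Cenpe, Kif11, Prc1, Cdc20, Top2a and Mki67 get fuller values, beside up to 4 called members with the smallest adjusted p, the extremes, and up to 3 called genes of each other list. Kif23, Pttg1, Bub1b in 1 line, Numa1, Nipbl, Tfdp2, the named cell type markers and the ERK readouts were singled out after their values were seen. The members, lists and alternatives were chosen with earlier results of these data known. The procedure was tested on simulated counts with a shared mean per gene and no differences between lines. That test does not cover lines that differ in level or response, as the lines here do.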

Additional observations from a re-analysis of the deposited data

How the results depend on the processing

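The number of mitosis genes called depended on the test. An alternative count given without a share of all genes cannot be read against that share. In Braf lines under CKI, DESeq2 called 2 members where edgeR called 0. In Arid1a KO lines under CKI the count of 4 was 7 with DESeq2, 0 with no filter on low counts, 7 when the fit held just the compared groups, 15 with the cell line as replicate block, 0 to 0 with each line left out, and 0 to 3 with the block and each line left out. In Arid2 KO lines the block with each line left out gave 0 to 1. For the mean over genotypes the count of 26 was 37 with the cell line as replicate block. It ranged from 11 to 37 with each line left out, and from 31 to 37 with the block as well. For Smarcb1 KO against Braf under CKI the count of 21 was 11 with no filter, 1 when the fit held just those groups, 0 without lines BS53958 and BS53965, and 1 to 28 with each line left out. The cause of these moves was not tested. The block changed no other call count of the members. RLE size factors gave 26 for the mean and 21 for Smarcb1 KO under CKI. Counts over all genes moved too: for Arid1a KO against Braf in vehicle, 567 genes were called by edgeR, 1573 by DESeq2 and 24 in a fit of just those groups. For the 11 genes given fuller values, 2143 of 2277 alternative values kept their side of the threshold, 57 gained a call and 77 lost one. In 0 cases did the direction change while the gene was called in either fit. A change of direction between uncalled values was counted as kept. Ccnb1 in the Arid1a KO minus Braf response is such a case (0.03, and −0.19 with the block). Depth limits the CKI library of line BS53965 most, with 2884130 counts.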
